A study of Caenorhabditis elegans with 24 samples.

Results

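The right arm of chromosome IV of Caenorhabditis elegans was described here as the 10 kb bins of the ce11 genome that start beyond 11.7 Mb. This rule gave 580 bins of the 10030 nuclear bins. The bins run to the chromosome end near 17.5 Mb, and the rule uses position alone. Chromosome arms of this worm are rich in repeats and in histone H3 methylated on lysine 9, which the chromodomain protein CEC-4 holds at the nuclear envelope. The right arm of IV also carries most genes of the piRNAs, also called 21U-RNAs, the small RNAs that guide the germline Piwi protein PRG-1. Of 15363 piRNA genes annotated in RefSeq, 11619 (75.6%) lay on the arm, beside 921 protein-coding and 39 tRNA genes.

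Contacts with the nuclear envelope were measured by DamID, in which the bacterial methyltransferase Dam is fused to a protein and methylated GATC sites are cut with DpnI, amplified and sequenced. Dam-EMR carried emerin (emr-1), an integral protein of the inner nuclear membrane, and GFP-Dam was the freely diffusing nuclear fusion that reports accessible DNA. Each fusion was measured with 3 replicates in 4 strains, which makes 24 libraries, 8 groups and 12 Dam-EMR and GFP-Dam pairs of the same strain and replicate. The Y59C cec-4 strain carried the GFP-tagged lamin with the Y59C substitution, a laminopathy mutation, and the cec-4(ok3124) allele, and the Y59C strain carried that lamin with intact cec-4. The GFP::LMN-1 cec-4 strain carried the tagged lamin without the substitution and the same cec-4 allele, and the GFP::LMN-1 strain carried that lamin with intact cec-4. All strains therefore held a GFP-tagged lamin, a myo-3p::FLP recombinase that switches the Dam fusion on, and a Dam fusion behind the hsp-16.41 promoter without heat shock, and all were collected as L3/L4 larvae after 26 h at 22.5 °C. The labels name body wall muscle and the driver gene myo-3 is a muscle gene, whereas the design text names the intestine. DNA came from whole larvae, so the tissue rests on the driver, and piRNA pathway proteins work in the germline rather than in muscle.

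Dam-EMR libraries held 34946 to 6163102 nuclear reads (median 1726382) and GFP-Dam libraries 2726612 to 19412314 (median 8278220). The shallowest library, Dam-EMR of Y59C in replicate 3, placed only 1031 reads on the arm. Arm reads were 2.95% to 3.89% of a Dam-EMR library and 2.37% to 3.58% of a GFP-Dam library, so the ranges overlapped. Within pairs the Dam-EMR share was the higher, with 2 exceptions. These were Y59C cec-4 in replicate 1 (3.42% against 3.47%) and GFP::LMN-1 cec-4 in replicate 2 (3.06% against 3.24%). Over the 580 bins, GFP-Dam libraries ranked the bins alike, with Spearman correlations of 0.91 to 0.99 between libraries. Dam-EMR libraries ranked them less alike, at 0.48 to 0.82, and a Dam-EMR library and the GFP-Dam library of its pair correlated at 0.62 to 0.87. These correlations describe bins that share a library and a GATC content, and the GATC sites per bin were not analysed here. The spread between replicates differed in the same way: edgeR's common biological coefficient of variation was 103% among Dam-EMR libraries and 34.9% among GFP-Dam libraries.

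Reads of both fusions were low over most of the arm. Reads per bin are given as a level, the bin's reads over those of the median nuclear bin of the same library. In Dam-EMR libraries the median arm bin had a level of 0.265 (0 to 0.476 over 12 libraries), and in GFP-Dam libraries of 0.357 (0.333 to 0.421). The left arm of IV had 0.743 with Dam-EMR and 0.764 with GFP-Dam, the centre of IV had 0.971 and 1.01 in that order, and the arms of the other autosomes had 0.823 and 0.777. The median GFP-Dam level of the arm was under that of each of these zones in all 12 libraries, since the lowest GFP-Dam library reached 0.699 on the left arm, 0.809 in the centre and 0.731 on the other arms.

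The low reads followed the piRNA genes. Of the 580 bins, 308 held at least 10 piRNA genes, up to 69 in a bin, and these dense bins lay between 13.59 and 17.25 Mb. In dense bins the median level was 0.0424 for Dam-EMR (0 to 0.195 over 12 libraries) and 0.107 for GFP-Dam (0.0906 to 0.154). In the 96 bins with 1 to 9 piRNA genes it was 0.78 for Dam-EMR (0.408 to 1.0) and 0.748 for GFP-Dam (0.676 to 0.853). In the 176 bins without a piRNA gene it was 1.47 for Dam-EMR (1.0 to 2.05) and 1.33 for GFP-Dam (1.22 to 1.6). The 1.0 of both classes came from Dam-EMR of Y59C in replicate 3, whose median nuclear bin held 1 read. The levels of the dense class and the class without piRNA genes did not overlap between libraries of either fusion. The log2 Dam-EMR over GFP-Dam ratio was also taken from summed reads of each class, centred on the median 100 kb bin. It was 0.16 ± 0.23 in dense bins (SD, 9 of 12 pairs above 0). With 1 to 9 piRNA genes it was 0.24 ± 0.36 (9 of 12), and without one 0.05 ± 0.16 (7 of 12). The median Dam-EMR level of dense bins was thus lower, but the ratio of summed reads was not. Summed reads weigh most on bins with many reads, so this ratio does not describe the median dense bin. The Spearman correlation between reads and piRNA genes over the 580 bins was -0.46 for the median Dam-EMR library (-0.52 to -0.35) and -0.55 for the median GFP-Dam library (-0.57 to -0.52).

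**Figure D1:**
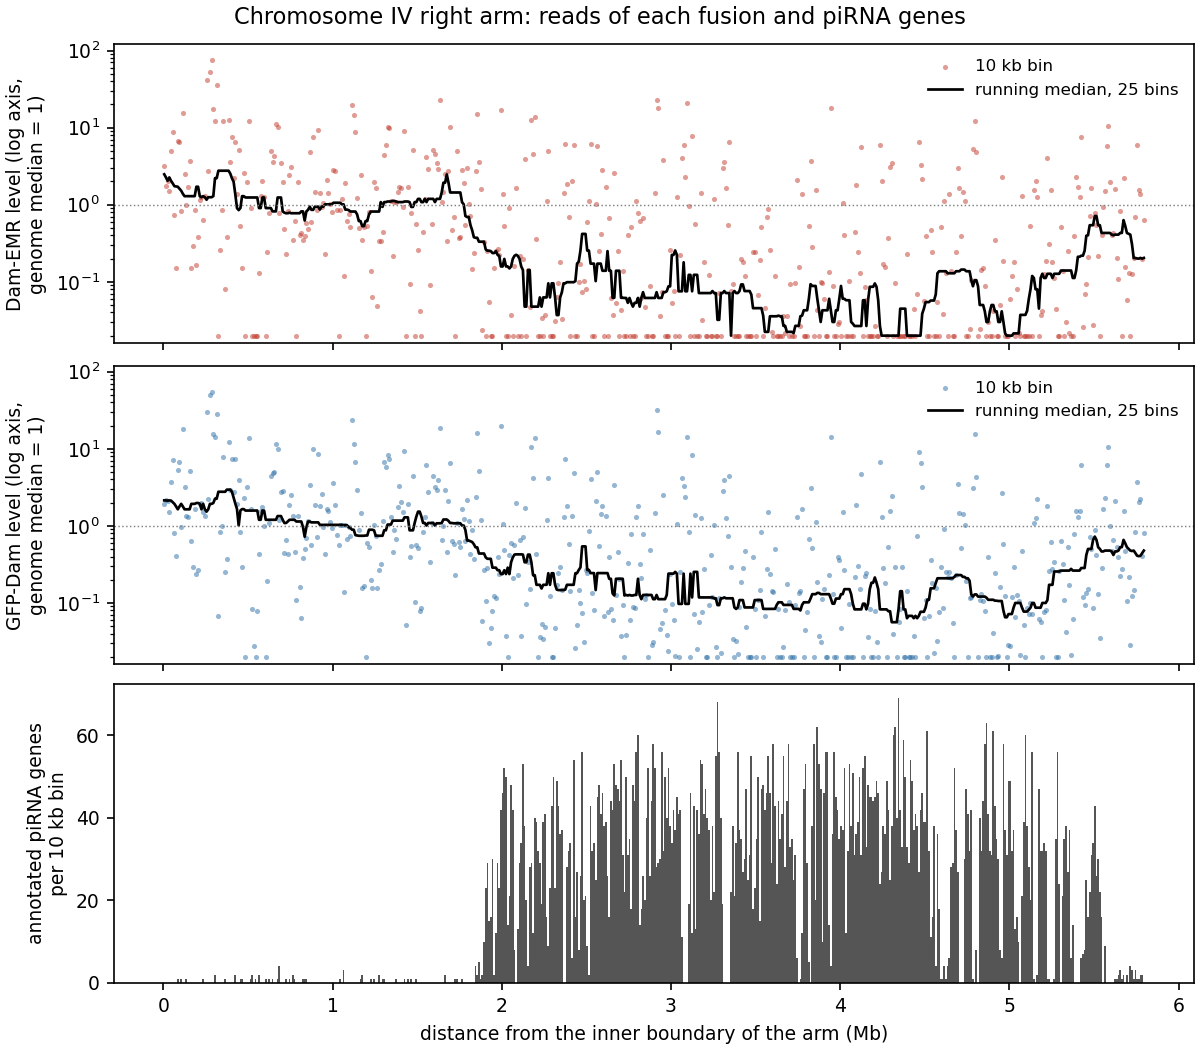
Level of each 10 kb bin (median of 12 libraries, log axis, genome median bin at 1, values under 0.02 drawn at 0.02) for Dam-EMR and GFP-Dam, and annotated piRNA genes per bin, against distance from the inner boundary of the arm. The running medians stay near 1 before the piRNA genes begin, fall to near 0.1 or below where they are dense, and partly recover at the chromosome end.

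Protein-coding genes were fewer in dense bins, at 1.1 per bin, against 2.18 per bin where no piRNA gene lay. A gap between the classes was also seen among bins with at least 2 coding genes. There the 92 dense bins had a median level of 0.112 with Dam-EMR and 0.154 with GFP-Dam, and the 113 bins without piRNA genes had 1.51 with Dam-EMR and 1.33 with GFP-Dam. Dense bins elsewhere on IV were low too. The 63 dense bins of the left arm had 0.0958 with Dam-EMR and 0.251 with GFP-Dam, and the 56 dense bins of the centre had 0.293 with Dam-EMR and 0.408 with GFP-Dam. Base composition, mappable length and GATC sites were not analysed here, and their part in these levels was not tested.

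The dense bins were not uniformly low. With GFP-Dam, 149 of the 308 (48.4%) had a median level under 0.1, but 44 (14.3%) lay above 1 and 5 above 10. With Dam-EMR, 190 (61.7%) lay under 0.1, 42 (13.6%) above 1 and 5 above 10. These few high bins meant that the dense bins, 53.1% of the arm, held 24% of its reads in the median Dam-EMR library and 22.8% in the median GFP-Dam library. The highest was 14610001 to 14620000, which overlaps dmd-6, a gene of the DM domain family, and holds 28 piRNA genes and a tRNA gene. Its level was 22.7 with Dam-EMR (4.82 to 75.3) and 31.7 with GFP-Dam (14 to 53.5).

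**Figure D2:**
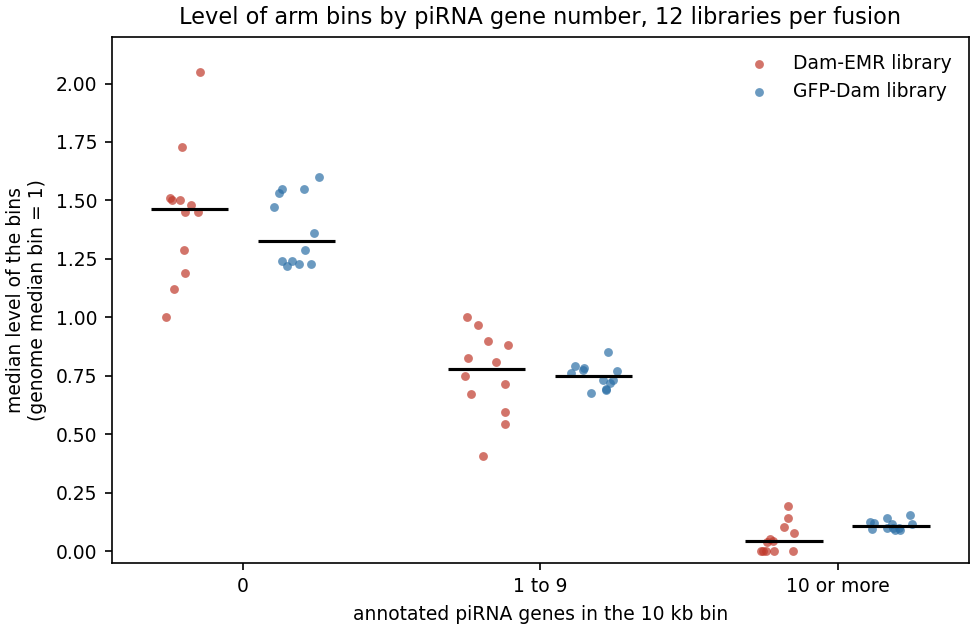
Median level of arm bins (genome median bin at 1) by number of piRNA genes in the bin, 1 point per library, Dam-EMR left of GFP-Dam in each class, with the median of the 12 libraries as a line. Bins with 10 or more piRNA genes sit under 0.2 in every library and bins without one at 1 or above.

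Many arm bins held no Dam-EMR read. The share of empty arm bins was 1.9% to 59.5% in Dam-EMR libraries (median 26.1%, against 12.2% of all nuclear bins), and 1.9% to 8.28% in GFP-Dam libraries (median 2.76%, against 0.934%). Had each Dam-EMR library sampled the bins in proportion to the GFP-Dam library of its pair, counting error alone would have left 13.1% empty in the median library. That expectation leaves out the larger spread between Dam-EMR libraries (coefficient of variation 103%), so an excess of empty bins was not tested. Fewer bins than so expected were empty in replicate 3 of Y59C (59.5% against 61.8%) and of GFP::LMN-1 cec-4 (1.9% against 3.98%). In the other libraries more bins were empty than so expected. Strains differed in this and in depth: 10.3% of arm bins were empty in all 3 Y59C cec-4 libraries, 21.2% in Y59C, 1.38% in GFP::LMN-1 cec-4 and 6.55% in GFP::LMN-1, which held 7543447, 3159410, 9905409 and 4529303 Dam-EMR reads in that order. The deepest strain had the fewest empty bins and the shallowest the most, while Y59C cec-4 had more empty bins than GFP::LMN-1 with more reads. Over all nuclear bins the order was the same, at 3.43%, 8.59%, 0.927% and 2.06%. In GFP-Dam the 4 arm shares lay between 1.03% and 1.55%. Of the 123 bins empty in Y59C, 94 were dense in piRNA genes.

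The highest reads of the arm lay at its inner end, over unc-22. This gene encodes twitchin, the giant kinase of the muscle sarcomere, and is the member of the body wall muscle list on the arm. In the bin 11980001 to 11990000, inside unc-22, Dam-EMR libraries held 654 to 2250 CPM (reads scaled to 1000000 nuclear reads of the library, median 1680), and GFP-Dam libraries 861 to 1940 CPM (median 1370). Those are levels of 75.0 for Dam-EMR and 54.6 for GFP-Dam, and the bin ranked 13 with Dam-EMR and 19 with GFP-Dam among all nuclear bins. The other 4 bins that overlap unc-22 had levels of 12.3 to 53.3 with Dam-EMR and 14.3 to 49.9 with GFP-Dam. Pair ratios of single 10 kb bins are log2 Dam-EMR over GFP-Dam with 1 read added, centred on the median 10 kb bin of the pair. That of the first bin was 0.25 ± 1.03 (SD, n = 12), above 0 in 7 of 12 pairs. For this bin edgeR gave 0.21 ± 0.28 (SE, adjusted p = 0.72). The centred ratio went with the replicate, at -0.6, 1.13 and 0.2 for replicates 1, 2 and 3. A difference between the fusions was thus smaller than the spread between pairs.

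The ratio of the fusions over the whole arm was close to that of the genome. The association level is the mean over the 58 arm bins of 100 kb of the log2 Dam-EMR over GFP-Dam ratio, with 1 read added and centred on the median bin of the pair. It was 0.19, -0.08 and -0.01 in the 3 Y59C cec-4 pairs, and 0.06, 0.1 and 0.17 in the 3 Y59C pairs. It was 0.31, -0.29 and 0.18 in the 3 GFP::LMN-1 cec-4 pairs, and 0.03, 0.15 and 0.03 in the 3 GFP::LMN-1 pairs. The means were 0.03 ± 0.14 in Y59C cec-4, 0.11 ± 0.05 in Y59C, 0.07 ± 0.32 in GFP::LMN-1 cec-4 and 0.07 ± 0.07 in GFP::LMN-1 (SD, n = 3 each). The ranges of the strains overlapped in every comparison of a lamin or of cec-4, so no strain stood apart in the level of the arm.

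Over the 12 pairs the arm averaged 0.07 ± 0.15 (SD, 9 of 12 above 0), against 0.06 ± 0.16 on the left arm, -0.11 ± 0.11 in the centre and 0.16 ± 0.18 on the other autosome arms. Within pairs the right arm exceeded the centre of IV by 0.18 ± 0.15, in 11 of 12 pairs, the exception being GFP::LMN-1 cec-4 in replicate 2. It differed from the left arm by 0.01 ± 0.18 (8 of 12 above 0), and lay 0.09 under the other autosome arms (a difference of -0.09 ± 0.14, with 3 of 12 above 0). By replicate the arm averaged 0.15, -0.03 and 0.09 in replicates 1, 2 and 3. No p-value is given for these means, since the arm was chosen with results of these data known.

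**Figure D3:**
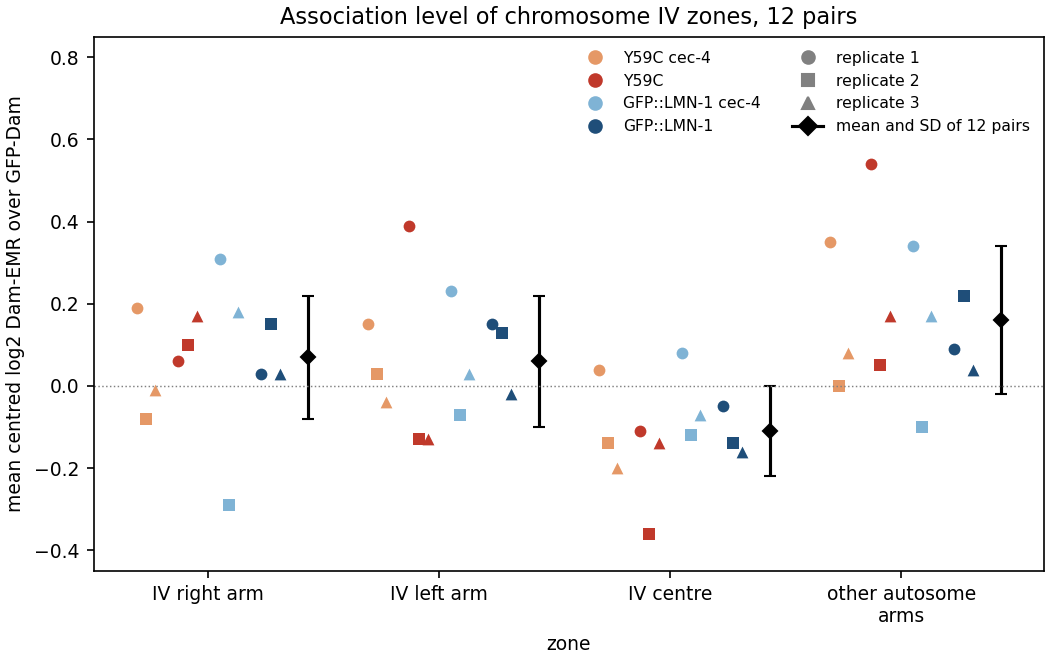
Mean centred log2 Dam-EMR over GFP-Dam of the 12 pairs in 4 zones; colours give the strain, symbols the replicate, and diamonds the mean with SD over the 12 pairs. The right arm of IV lies at 0.07 ± 0.15 and the centre of IV at -0.11 ± 0.11, and the strains overlap in each zone.

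Along the arm the levels dropped in both fusions and the ratio varied more between pairs than between segments. From 11.7 to 12 Mb the median level was 1.96 with Dam-EMR and 1.95 with GFP-Dam. The lowest Dam-EMR level was 0.0324, from 15.5 to 16 Mb, and the lowest GFP-Dam level 0.0936, from 16.5 to 17 Mb. From 17 to 17.5 Mb the levels were 0.447 with Dam-EMR and 0.446 with GFP-Dam. The segment with the highest ratio was 16.5 to 17 Mb, at 0.40 ± 0.42 (SD, n = 12, 10 of 12 above 0), with 0.57 ± 0.63 in Y59C cec-4, 0.53 ± 0.24 in Y59C, 0.33 ± 0.3 in GFP::LMN-1 cec-4 and 0.18 ± 0.52 in GFP::LMN-1. It was also the segment with the lowest GFP-Dam level. The most uniform segment was 12 to 12.5 Mb, at -0.12 ± 0.17, under 0 in 11 of 12 pairs and above 0 in 1 of 12, Y59C cec-4 in replicate 2.

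Replicate 1 set several extremes. From 13.5 to 14 Mb, where the piRNA genes begin, the ratio was -0.99, -1.55, -0.38 and -0.16 in replicate 1 of Y59C cec-4, Y59C, GFP::LMN-1 cec-4 and GFP::LMN-1, whereas the other 8 pairs lay between -0.02 and 0.39. From 14 to 14.5 Mb replicate 1 averaged 0.58, against 0.06 in replicate 2 and 0.08 in replicate 3. Over the 58 bins of 100 kb, pair ratios correlated at a median Pearson's r of 0.25 between strains of the same replicate (18 comparisons, -0.13 to 0.60), and at 0.08 between replicates of the same strain (12 comparisons, -0.32 to 0.40). Pairs that shared neither correlated at 0.02 (36 comparisons, -0.36 to 0.51). Within replicates 1, 2 and 3 the median was 0.34, 0.12 and 0.31. By these medians pairs of 1 replicate were more alike along the arm than pairs of 1 strain, least so in replicate 2, and the ranges overlapped.

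**Figure D4:**
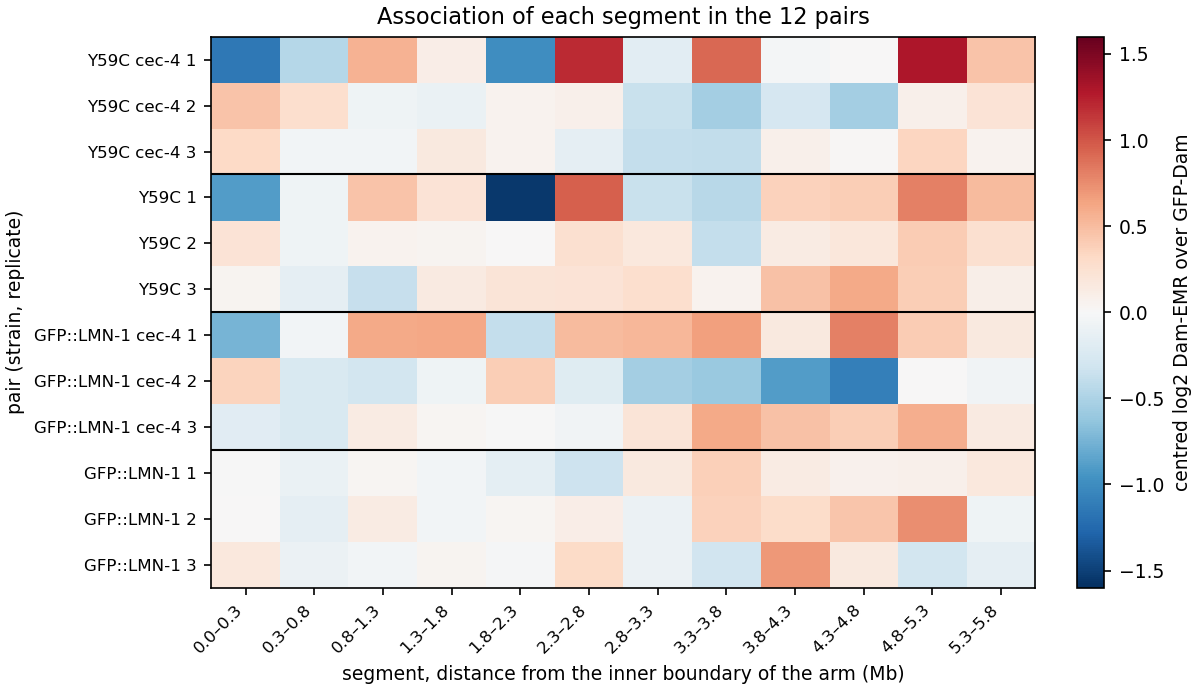
Centred log2 Dam-EMR over GFP-Dam of 12 segments of the arm (columns, by distance from the inner boundary) in the 12 pairs (rows, by strain and replicate); red is higher in Dam-EMR and blue lower. The replicate 1 rows are blue in the segment of 13.5 to 14 Mb, and in the first segment 3 of them are blue while GFP::LMN-1 is at -0.01, and the column of 16.5 to 17 Mb is red in 10 of 12 pairs.

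Ratios on both sides of the inner boundary varied widely between pairs. The first bins inside, 11700001 to 11710000 and 11710001 to 11720000, had ratios of 0.71 ± 0.87 and -0.15 ± 1.29 (SD, n = 12). The bins just outside, 11690001 to 11700000 and 11680001 to 11690000, had -0.9 ± 1.32 and -0.27 ± 0.88. GFP-Dam levels were 1.93 and 2.14 inside, against 1.87 and 0.857 outside. The gene let-60, the worm's Ras, overlaps both outside bins, and alg-3, which encodes a germline Argonaute, overlaps the first inside.

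Single bins were then tested for a difference between the fusions, averaged over the 4 strains, with edgeR's quasi-likelihood test on the counts. Of the 580 bins, 512 passed the filter on low counts. Of the 68 that did not (11.7%, against 2.38% elsewhere), 63 were dense in piRNA genes and 1 was empty in all 24 libraries. At a Benjamini-Hochberg adjusted p under 0.05, 10 bins were higher in Dam-EMR (1.95% of 512) and 11 lower (2.15%). Among all 9735 tested nuclear bins 1.29% were called higher and 1.8% lower, so the arm lay close to the background. At an unadjusted p under 0.05 the arm had 22.3% of its bins, against 20.2% in all bins, and the fit shared 1 dispersion between fusions of unequal spread. In simulated data of such unequal spread, this test called far more unchanged bins than its adjusted p allows. The adjusted p-values of these calls may therefore understate the share of false calls.

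The calls depended on the test and on replicates. DESeq2 called 48 arm bins, against 9.19% of all tested bins, and limma voom with library weights called 2, against 0.164% of all. Limma on the pair ratios called 0, with 30 bins higher and 35 lower at an unadjusted p under 0.05. Without replicate 1 the count was 11, of which 4 were among the 21, without replicate 2 it was 6, of which 5 were, and without replicate 3 it was 0. Without the shallowest library it was 32, the 21 included. With the replicate as a block 16 of the 21 calls remained, and those of rom-3, irld-4, sra-30, Y43D4A.5 and gei-18 were lost. The median log2 ratio was -0.05 over the tested arm bins and -0.07 over all bins.

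Of the bins higher in Dam-EMR, 7 of 10 were dense in piRNA genes, against 245 of the 512 tested. The bin 15400001 to 15410000 covers nhr-5, a nuclear hormone receptor gene, and 33 piRNA genes. It held 0, 1.87 and 2.25 Dam-EMR CPM in the 3 Y59C cec-4 libraries, 39.1, 0 and 0 in Y59C, 1.57, 8.05 and 126 in GFP::LMN-1 cec-4, and 0, 64 and 9.95 in GFP::LMN-1. The 12 GFP-Dam libraries held 0 to 2.2 (median 0.388), so 6 Dam-EMR libraries lay above the highest GFP-Dam library while 4 were empty. The fitted log2 ratio was 4.48 ± 0.87 (SE, adjusted p = 0.00791), with 12 of 12 pair ratios above 0, some only through the added read in shallow libraries. Without the library of 39.1 CPM, Dam-EMR of Y59C in replicate 1, the log2 ratio was 2.12 and the bin was not called (adjusted p = 0.996). This bin and 12510001 to 12520000 were the 2 called with limma voom, at adjusted p = 0.0319 and 0.0435. The second of these overlaps tsp-4, a tetraspanin gene, and had Dam-EMR at 0 to 335 CPM (median 14.6) and GFP-Dam at 0.501 to 11.7 (median 1.87), a log2 ratio of 3.24 ± 0.7 (adjusted p = 0.0171), and of 2.42 without Dam-EMR of Y59C in replicate 1 (adjusted p = 0.0456).

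The bin 13430001 to 13440000, over mam-3, which encodes a protein with MAM domains, gave 3.6 ± 0.61 (adjusted p = 0.00339) and was the arm's smallest p. It held 350, 78 and 301 Dam-EMR CPM in Y59C cec-4, 3710, 133 and 0 in Y59C, 2750, 26.1 and 52.1 in GFP::LMN-1 cec-4 and 187, 93.2 and 40.1 in GFP::LMN-1, while GFP-Dam libraries held 23.3 to 57.6. Without the library of 3710 CPM the log2 ratio was 2.71 (adjusted p = 0.0068). The highest library of 6 of the 10 bins was Dam-EMR of Y59C in replicate 1. Without that library 20 bins were called (7 higher and 13 lower), of which 14 were among the 21, and the bin 14630001 to 14640000 over irld-4 and ule-2 had a fitted log2 ratio of -0.03 without it, against 2.91 with it. The bin 17290001 to 17300000, which overlaps slc-17.4, a solute carrier gene, gave 1.44 ± 0.36 (adjusted p = 0.033, 10 of 12 pairs) and was also highest in that library, without which it gave 0.99 (adjusted p = 0.068).

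Of the 11 bins lower in Dam-EMR, 7 were dense in piRNA genes, against 245 of the 512 tested. No Dam-EMR read lay in any Y59C library in 6 of the 11, against 72 of the 512. The fitted ratios of these 6 are therefore not given. The 2 lower bins with the most reads had Dam-EMR reads in every strain. The bin 12840001 to 12850000 over txt-19 and part of srf-3, a nucleotide sugar transporter gene, held 0 to 67.9 Dam-EMR CPM (median 37.5), against 65.0 to 189 in GFP-Dam (median 83.1). It was lower in 12 of 12 pairs, at -1.46 ± 0.35 (SE, adjusted p = 0.0274). The bin 16170001 to 16180000, which holds 42 piRNA genes and the end of gln-3, a glutamine synthetase gene, held 31.7 to 203 with Dam-EMR (median 70.9) and 148 to 296 with GFP-Dam (median 196). It gave -1.17 ± 0.29 (adjusted p = 0.03), with 1 of 12 centred pair ratios above 0. That pair, GFP::LMN-1 in replicate 3, held 203 CPM with Dam-EMR and 226 with GFP-Dam.

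Called bins of opposite sign could lie next to each other. Directly inward of the mam-3 bin, 13420001 to 13430000 over nol-9, a gene for a nucleolar kinase, held 0 to 10.9 Dam-EMR CPM (median 0.161), against 3.17 to 12.5 in GFP-Dam (median 6.75), with adjusted p = 0.0252. With 1 bin between them, 16970001 to 16980000, higher at adjusted p = 0.0413, and 16990001 to 17000000, lower at adjusted p = 0.0192, overlap the rhomboid genes rom-3 and rom-4. The first held a median of 1.12 Dam-EMR and 0.325 GFP-Dam CPM, and its adjusted p was 0.102 with the replicate block and 0.985 without Dam-EMR of Y59C in replicate 1, where the log2 ratio was 1.18, against 3.8 with it. In the second, 8 Dam-EMR libraries were empty and the others reached 5.49, against 2.2 to 17.8 in GFP-Dam.

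**Figure D5:**
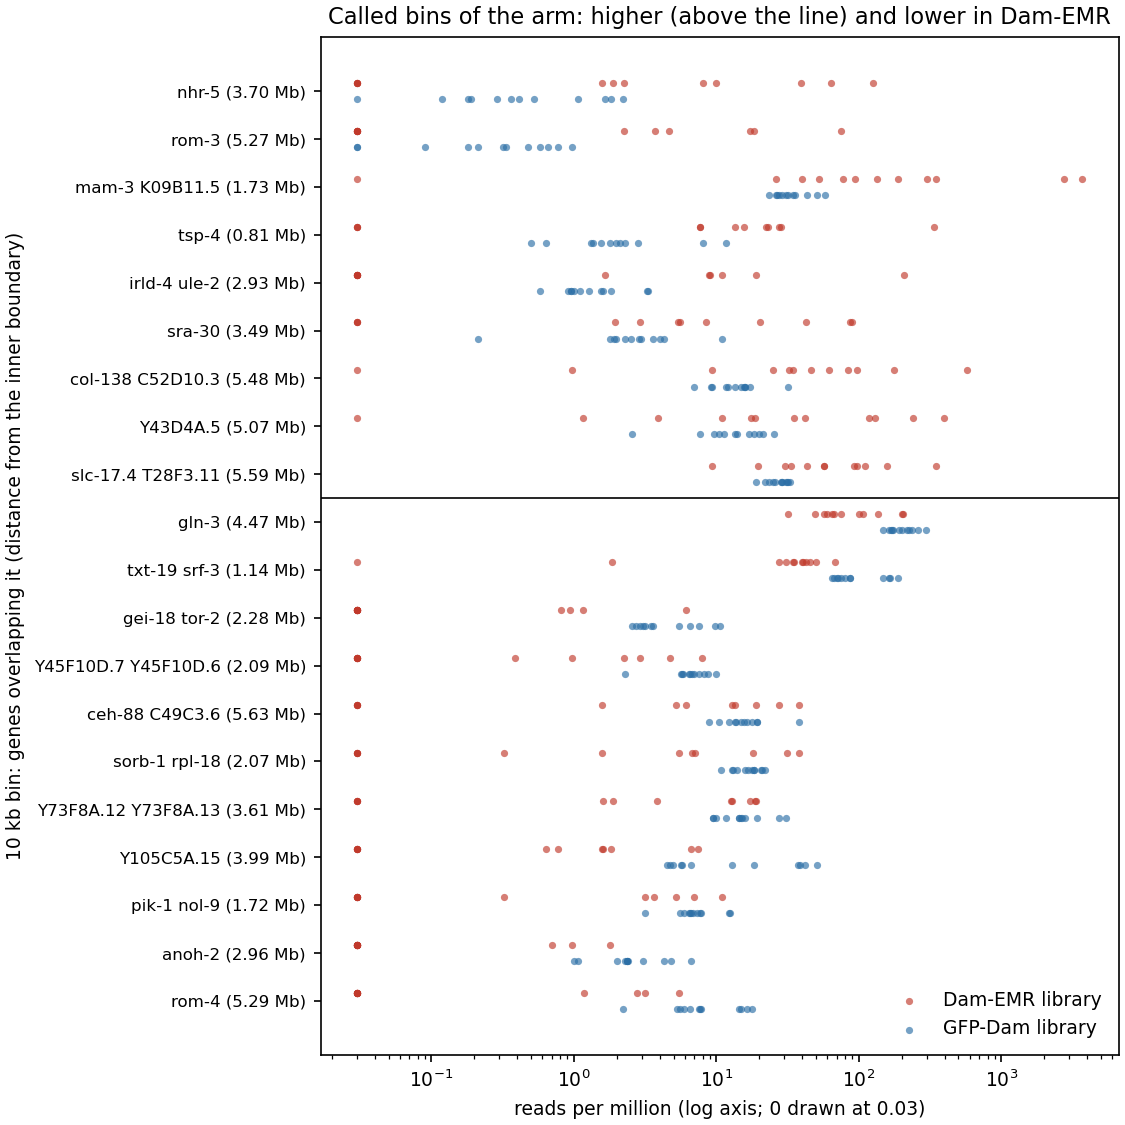
CPM (log axis, 0 drawn at 0.03) in 20 of the 21 called bins, ordered by fitted log2 ratio, with the 12 Dam-EMR libraries above the 12 GFP-Dam libraries in each row. Dam-EMR points spread widely, as in the mam-3 bin from 0 to 3710 CPM, where GFP-Dam points lie at 23.3 to 57.6. The fusions overlap in most rows.

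The genes of the arm were grouped by family and tissue, each gene counted in the bin that holds its midpoint. Chemoreceptor genes, which encode the worm's large families of olfactory receptors, were the largest group, with 72 members in 49 bins, of which 27 were dense in piRNA genes. Of 45 tested bins 2 were higher and 0 lower, against 1.29% and 1.8% of all tested bins, those of sra-30 and of the pseudogene sru-10, which lies in the tsp-4 bin. The sra-30 bin was not called with the replicate block (adjusted p = 0.0594). The other groups hold so few bins that 1 call exceeds these shares. The group's median log2 ratio was 0.07, against -0.05 over the arm. Its median level was 0.0698 with Dam-EMR and 0.123 with GFP-Dam.

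The 18 C-type lectin genes, members of a family linked to immune responses, lay in 13 bins with 0 called and a median of -0.65, from -2.44 at clec-202 to 1.11 at clec-187. Of 3 nuclear hormone receptor genes nhr-5 was higher, and of 10 cuticle collagen bins that of col-138 was higher, at 2.5 ± 0.55 (adjusted p = 0.019), with 0 to 571 Dam-EMR and 7.01 to 31.8 GFP-Dam CPM. Of 6 ribosomal protein bins that of rpl-18 was lower, with 0 to 38.1 Dam-EMR CPM (median 3.52), against 10.8 to 21.9 in GFP-Dam (median 17.4, adjusted p = 0.037). The ribosomal protein bins had levels of 1.96 with Dam-EMR and 2.17 with GFP-Dam. The 8 bins of 9 germline genes, among them mex-5 and the meiotic cohesin gene rec-8, had 1.52 and 1.24 in that order. None of the 5 neuropeptide, 5 F-box, 6 developmental transcription factor and 4 acetylcholine or GABA receptor bins tested was called. The arm holds no listed gene of histones, intestine, pharyngeal muscle, hypodermis or the nuclear envelope.

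Within single strains few bins passed the test. In Y59C edgeR called 2 arm bins higher and 4 lower in Dam-EMR, against 0.0616% and 0.894% of all tested bins. The higher ones were those of tsp-4, at 124 ± 183 Dam-EMR and 1.06 ± 0.483 GFP-Dam CPM (SD, n = 3), and of mam-3, at 1280 ± 2110 Dam-EMR and 33.4 ± 8.87 GFP-Dam CPM. The 4 lower ones held no Dam-EMR read in any of the 3 Y59C libraries. A floor of 3 reads over the group puts the Dam-EMR value at least 15.1-fold lower at 12410001 to 12420000, which overlaps dsb-1, a gene for meiotic break formation. The same floor gives at least 14.6-fold lower at 13900001 to 13910000, 13.7-fold at 15310001 to 15320000 and 16.8-fold at 17330001 to 17340000. These 4 bins had 13 to 15.9 pooled GFP-Dam CPM in Y59C. Replicate 2 held 81.9% of the Y59C Dam-EMR reads, and without it the bounds are 2.47- to 3.04-fold. Without replicate 1, 2 or 3, without Dam-EMR of Y59C in replicate 1, and with RLE factors, library totals alone, limma on pair ratios or limma voom, 0 of the 6 were called. With the replicate block 2 were called, without the shallowest library 18, and with DESeq2 46 (8.96% of all tested bins).

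In the other strains edgeR called 0 arm bins, as it did over all bins (0% higher and 0% lower). At an unadjusted p under 0.05 there were 25 higher and 33 lower in Y59C cec-4, 21 and 11 in GFP::LMN-1 cec-4, and 9 and 17 in GFP::LMN-1. DESeq2 called 9 in Y59C cec-4 (1.84% of all tested bins), 2 in GFP::LMN-1 cec-4 (0.154%) and 0 in GFP::LMN-1 (0.0205%). Limma voom called 0 in Y59C cec-4 (0.0103%), 2 in GFP::LMN-1 cec-4 (0.247%) and 0 in GFP::LMN-1 (0%). In GFP::LMN-1 cec-4 both tools called the nhr-5 bin higher, with 45.1 ± 69.9 Dam-EMR and 0.273 ± 0.147 GFP-Dam CPM (SD, n = 3). It also had the smallest p of edgeR in this strain (adjusted p = 0.999). In GFP::LMN-1 the bin 13850001 to 13860000 held no Dam-EMR read, at least 16.6-fold lower than GFP-Dam and 5.18-fold without replicate 3, the deepest, with adjusted p = 1.0.

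The differences between strains in the ratio of the fusions gave 0 called arm bins with edgeR for the Y59C substitution, for cec-4 in either lamin background and for their interaction. Over all bins edgeR called 0% higher and 0.0205% lower for the substitution, and 0% for the rest. At an unadjusted p under 0.05 the arm had 20 higher and 51 lower bins in Y59C against GFP::LMN-1, where its median log2 difference was -0.38 and that of all bins -0.25. The sign depended on the method: the arm's median was -0.07 with RLE factors, 0.14 with DESeq2, and 0.44 with limma on pair ratios, where 12 bins were higher and 1 lower. For cec-4 in Y59C there were 56 higher and 29 lower (median 0.28, all bins 0.26), but 3 and 18 with limma on pair ratios (median -0.32) and 4 and 16 with limma voom (median -0.54). For cec-4 in GFP::LMN-1 there were 16 and 6 (median 0.05, all bins -0.01; -0.06 with limma on pair ratios), and for the interaction 37 and 34 (median 0.38; -0.65 with limma voom). DESeq2 called 6 for the substitution (1.2% of all tested bins), 19 for cec-4 in Y59C (3.37%), 0 for cec-4 in GFP::LMN-1 (0%) and 3 for the interaction (0.544%), and limma voom called 0 in these 4. The bins with the smallest p, 13900001 for the substitution (adjusted p = 0.118) and 12410001 for cec-4 in Y59C (adjusted p = 0.0817), are those without Dam-EMR reads in Y59C. At 12410001 the Dam-EMR values were 19.6 ± 5.23 CPM in Y59C cec-4 and 0 in Y59C, and the GFP-Dam values 12.1 ± 10.6 in Y59C cec-4 and 15.1 ± 3.92 in Y59C.

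In fits of a single fusion no arm bin was called between strains. With GFP-Dam libraries fitted alone with edgeR, 0 of 518 tested arm bins were called for Y59C against GFP::LMN-1 (0.0102% of all bins), with 5 higher and 5 lower at an unadjusted p under 0.05. None was called for cec-4 in GFP::LMN-1 (1 higher and 3 lower at that level) or in Y59C (7 and 6). The fitted log2 difference was under 1 in size in 94.8%, 96.5% and 95.6% of arm bins for the substitution, cec-4 in GFP::LMN-1 and cec-4 in Y59C. With the replicate block 0 were called as well, but the GFP-Dam coefficient of variation was 21% and 16 higher and 18 lower bins had an unadjusted p under 0.05 for the substitution, 4 and 6 for cec-4 in GFP::LMN-1 and 27 and 16 for cec-4 in Y59C. With all 24 libraries in 1 fit edgeR and DESeq2 called 0, with 0 arm bins at an unadjusted p under 0.05. That edgeR fit shared its dispersion with the more variable Dam-EMR libraries. Only 0.0103% (substitution), 0.0205% (cec-4 in GFP::LMN-1) and 0% (cec-4 in Y59C) of all bins reached that level with edgeR. The joint fit therefore could not decide whether GFP-Dam differed between strains. Limma voom, which called 0.37% of all tested bins in Y59C against GFP::LMN-1 and 0.0103% for cec-4 in GFP::LMN-1, called 2 arm bins in the first of these and 0 for cec-4. They were 1 higher, 11920001 to 11930000 over srlf-31, srlf-32 and srlf-33 (log2 1.25, adjusted p = 0.0196), and 1 lower, 14040001 to 14050000 (log2 -1.89, adjusted p = 0.0488). With Dam-EMR libraries fitted alone edgeR called 0 of 436 for each comparison (0% of all bins). At an unadjusted p under 0.05 there were 10 higher and 30 lower for the substitution, 8 and 2 for cec-4 in GFP::LMN-1 and 32 and 18 for cec-4 in Y59C. The fitted difference was under 1 in size in 48.9%, 63.1% and 44.7% of bins in that order. Larger fitted differences in the remaining bins were not called either, with a coefficient of variation of 103% among Dam-EMR libraries.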

How the data were processed

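The values used are read counts that the authors deposited without normalization, for each library apart, in 10 kb and 100 kb bins of ce11. Which aligner made them is not given in the sources used here. Deposited log2 tables were not used. Mitochondrial bins were left out, as were 2 bins with the value 1 in all 24 libraries. Genes came from a RefSeq table of the same assembly; no sequence was read.

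All 24 libraries entered 1 edgeR fit (version 4.0.16, R 4.3.3) with the quasi-likelihood test, 8 group means, TMM normalization and the filterByExpr filter, with Benjamini-Hochberg adjustment over all tested bins. DESeq2 1.42.0 and limma 3.58.1 were run beside it, and the scripts were tested on simulated data. With the spread of each fusion kept apart, the averaged test there called far more unchanged bins than its adjusted p allows. Most simulated strain differences were missed there. The alternatives limma voom, each fusion alone, and fits without 2 single Dam-EMR libraries were chosen after seeing the data. Levels and ratios used library totals over nuclear bins. Pair ratios of single 10 kb bins had 1 read added and were centred on the median 10 kb bin of the pair. Up to 12 called bins a direction were named, or in other comparisons 6, or the smallest p where none was called. The bins, gene lists and tests were chosen with earlier results of these data known. Genes outside that rule were named after their values were seen. A called bin that the rule names is not reported here.

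Replicate numbers pair the samples, since the design text says that strains were grown in parallel in each replicate. Deviations from group means correlated at a median r of 0.49 for GFP-Dam and 0.06 for Dam-EMR libraries of the same number. For other numbers it was -0.28 for GFP-Dam and -0.01 for Dam-EMR. The deviations of a group cancel in each bin, so the values for other numbers are not independent of those for the same number. Reads were amplified without molecular identifiers, so a floor from counts covers counting error only.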

Additional observations from a re-analysis of the deposited data

Results flagged for a closer look

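In 2 of the 21 called bins, all pairs of the cec-4 strain had the opposite sign to all pairs of the strain with intact cec-4. The log2 Dam-EMR over GFP-Dam ratios had 1 read added and were centred on the median 10 kb bin of the pair. Some signs rest on that centring. At 15310001, GFP::LMN-1 cec-4 in replicate 2 held 18.7 Dam-EMR and 19.2 GFP-Dam CPM, with a centred ratio of 0.8. At 17330001 to 17340000, near the homeobox gene ceh-88, the ratios were 0.15, 0.16 and 0.13 in Y59C cec-4 and -2.78, -4.57 and -0.11 in Y59C, a difference of 2.64. The Y59C libraries held no Dam-EMR read there, and edgeR's test of the difference gave an adjusted p of 0.107. At 15310001 to 15320000, which holds 43 piRNA genes, the ratios were 0.12, 0.8 and 0.71 in GFP::LMN-1 cec-4 and -0.08, -0.8 and -1.24 in GFP::LMN-1, a difference of 1.25 with an adjusted p of 1.0. Such opposite signs were found in 11 of the 512 tested arm bins for cec-4 in Y59C (2.15%, against 1.97% of all tested bins) and in 7 for cec-4 in GFP::LMN-1 (1.37%, against 1.53%), so the arm lay near the background.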

How the results depend on the processing

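The averaged association of Dam-EMR over GFP-Dam, with 21 called arm bins, gave 48 with DESeq2, 0 with limma on pair ratios, 2 with limma voom and 32 without the shallowest library, and 0 to 20 with a replicate or a single deeper library left out. In Y59C, with 6 called, it gave 46 with DESeq2, 18 without the shallowest library, and 0 with RLE factors, library totals alone, limma on pair ratios, limma voom and each replicate left out. DESeq2 called 9 in Y59C cec-4, 2 in GFP::LMN-1 cec-4, 6 for the substitution, 19 for cec-4 in Y59C and 3 for the interaction, where edgeR called 0. Limma voom called 2 in GFP::LMN-1 cec-4 and 2 for Y59C against GFP::LMN-1 in GFP-Dam. Without the shallowest library edgeR called 1 for the substitution and 5 for cec-4 in Y59C, and 5 of these 6 bins, all but that of dod-17, then had a compared group without Dam-EMR reads. Where a setting called 5 or fewer arm bins, those bins were named after their values were seen. In GFP::LMN-1 cec-4 they overlap nhr-5 and F02H6.3 (DESeq2) and nhr-5 and abu-5 (voom). For the interaction they overlap rpl-34, sorb-1 and ceh-88 (DESeq2). For cec-4 in Y59C, without the shallowest library, they overlap dsb-1, dod-17, irld-59, sta-1 and no coding gene. The cause of these shifts was not tested. At 14630001 the averaged log2 ratio was -0.03 to 3.59 with a replicate or library left out, and no other named bin changed sign. The association level without replicate 1 was -0.04 in Y59C cec-4 and -0.05 in GFP::LMN-1 cec-4, against 0.03 and 0.07 with it.

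The association level of the arm, 0.07, became 0.24 in 10 kb bins. In Y59C, at 0.11, it became 0.64 in 10 kb bins, 0.24 with 5 reads added and 0.18 from summed arm reads, and in GFP::LMN-1 0.18 in 10 kb bins. Depth limits the 10 kb ratios, since empty bins take the added read.

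With the replicate number as a block, 16 arm bins were called for the averaged association and 2 in Y59C, and the pairing ended no call in the other comparisons, where none was made. Without a replicate each group keeps 2 libraries.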
